A study of Danio rerio with 10 samples.

Results

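The mitochondrial chromosome of the zebrafish held 37 of the 31388 features in the count table of this RNAseq experiment. They were taken by their chromosome alone, whatever their counts, and comprised 13 protein-coding genes, 2 ribosomal RNA (rRNA) genes and 22 transfer RNA (tRNA) genes. They lay between positions 951 and 16596 of the mitochondrial chromosome (GRCz10). By annotated length, 14 of them had 200 bases or more (12 protein-coding genes and both rRNA genes), and 23 were shorter (all 22 tRNA genes and mt-atp8, with 165 bases).

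Genes of the mitochondrial chromosome are transcribed from both strands as long precursor RNAs, and the tRNAs that lie between the other genes mark where most mRNAs and rRNAs are released. The mRNAs encode core subunits of respiratory complexes I, III and IV and of the ATP synthase (complex V), while all other subunits, including the whole of complex II, are encoded in the nucleus. In the mouse, oligodendrocytes that have completed myelination can survive for long periods without a functional complex IV, which has made respiration a point of interest in the maturation of this lineage.

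The experiment compared FACsorted oligodendrocyte progenitor cells (OPCs), taken as GFP-positive cells of the Tg(olig2:eGFP) line, with mature oligodendrocytes (OLs), taken as GFP-positive cells of the Tg(mbp:eGFP) line. Both populations came from spinal cords of adult zebrafish for which no treatment and no further allele is named, with 5 biological replicates each, and the labels give polyA RNA as the molecule. In the first line eGFP is driven by regulatory sequence of olig2, which is also active in some radial glia of the ventral spinal cord, and in the second by that of mbp. The OPC suspension passed a finer strainer than the OL suspension, so line, strainer and population cannot be told apart, and the number of fish behind each library is not given in the sources used here.

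The libraries held 11072526 to 11960408 counts in OPCs and 13937725 to 20225093 in OLs. Counts were divided by size factors between 0.889 and 1.40, and the results are called normalized counts here. Of the marker genes, olig2 had 17171 ± 4136 normalized counts in OPCs, against 3722 ± 1484 in OLs (mean ± SD of 5 libraries, edgeR adjusted p = 0.000106), whereas mbpa averaged 541208 ± 62978 in OPCs and 950384 ± 63118 in OLs (edgeR adjusted p = 0.000638), so the myelin transcript was abundant in both populations. The other listed OL markers, plp1b, mpz and cldnk, averaged 788884, 981238 and 65348 normalized counts in OPCs, so they too were abundant there. Their log2 fold changes were -0.81, -0.59 and -0.63 (edgeR adjusted p = 0.00142, 0.00388 and 0.00948). Also listed as OPC markers were olig1 and sox10. Olig1 had 1243 ± 363 in OPCs and 24.0 ± 22.8 in OLs (edgeR adjusted p = 2.18e-05). Sox10 did not separate the populations, with 3030 ± 911 in OPCs and 3319 ± 860 in OLs (log2 fold change -0.13, edgeR adjusted p = 0.793). Among markers of other cells, her4.1 of radial glia held 22.4 to 451 normalized counts in OPC libraries and at most 0.854 in OL libraries, gfap 24.5 to 205 in OPCs and 14.5 to 49.8 in OLs, elavl3 of neurons 3860 to 6500 in OPCs and 4641 to 6663 in OLs, and coro1a and csf1ra of microglia and hbaa1 of erythrocytes at most 19.7 in any library. The remaining microglia marker matched by symbol, apoeb, held 2015 to 6935 normalized counts in OPCs and 3198 to 14707 in OLs (log2 fold change -1.32, edgeR adjusted p = 0.0515). No symbol match was found for nkx2.2a of OPCs, fabp7a and slc1a2b of radial glia, or mpeg1.1 of microglia. Nor was one found for snap25a, syt1a and stmn2a of neurons, or hbba1 and hbba2 of erythrocytes. Neurons therefore rested on elavl3 alone and erythrocytes on hbaa1 alone. The part of such cells in the values below was not tested. Nor was the part of OLs or their transcripts in the OPC libraries, so the comparison is between populations that both held much myelin RNA.

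Mitochondrial transcripts made up a small share of the counts in both populations, and the populations overlapped. Their share of all counts was 1.13%, 2.05%, 1.40%, 1.20% and 1.40% in OPC replicates 1 to 5, against 1.17%, 1.41%, 0.902%, 1.22% and 0.914% in OL replicates 1 to 5. The highest value belonged to OPC replicate 2 and the lowest pair to OL replicates 3 and 5, and the remaining OPC libraries lay inside the OL range. The mean share was 1.44% ± 0.366 in OPCs, against 1.12% ± 0.218 in OLs (mean ± SD, n = 5). The difference of 0.312 percentage points was smaller than the SD of the OPCs and larger than that of the OLs, and was not tested. Counting error of reads was far below the spread between libraries, with a 95% Wilson interval of at most 0.00821 percentage points to either side. The interval does not cover amplification of the cDNA. After normalization the chromosome summed to 173586 ± 40116 normalized counts in OPCs and 168232 ± 31813 in OLs. In bulk libraries, fewer cells of a type and less RNA per cell cannot be told apart.

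No feature of the mitochondrial chromosome passed the test between OPCs and OLs. The minimum expression filter left 19 of the 37, namely all 14 long features and mt-atp8, trnN, trnC, trnY and trnS1 of the short ones. With edgeR's quasi-likelihood test, 0 of these 19 reached an adjusted p under 0.05, whereas 11.8% of all 12292 tested features did. At an unadjusted p under 0.05 there were again 0 of 19 (23.7% of all tested features), and DESeq2 (16.2% of all) and limma (16.4% of all) also called 0 of 19. The normalized counts of OPCs and OLs overlapped for each of the 19, while 12.6% of all tested features did not overlap. The smallest adjusted p among them was 0.435 in edgeR, for mt-nd1.

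The log2 fold changes of OPCs over OLs were close to 0, from -0.24 for mt-nd1 to 0.23 for mt-nd3, with 11 positive and 8 negative. Their median was 0.07, beside 0.06 over all tested features. The 95% intervals of 16 of the 19 lay inside a 2-fold difference in either direction, among them those of all 14 long features, which together spanned -0.72 to 0.78. The intervals of trnN, trnC and trnY were wider and reached past 2-fold on both sides or on the upper side. With scaling by size factors, a difference of more than 2-fold lay outside the intervals of the long features, while smaller ones inside them were not detectable with these replicates. Without OPC replicate 2 the median was -0.19 with 3 of 19 positive, and 2 features, mt-nd1 and mt-cyb, then had an unadjusted p under 0.05 in edgeR (adjusted p = 0.203 and 0.137), with 0 past the adjusted threshold. With scaling by library size alone, which moved the median of all features by 0.31, all 19 were positive with a median of 0.38, beside 0.36 over all features, and again 0 passed, with mt-rnr2 and mt-atp6 at an unadjusted p under 0.05.

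**Figure D1:**
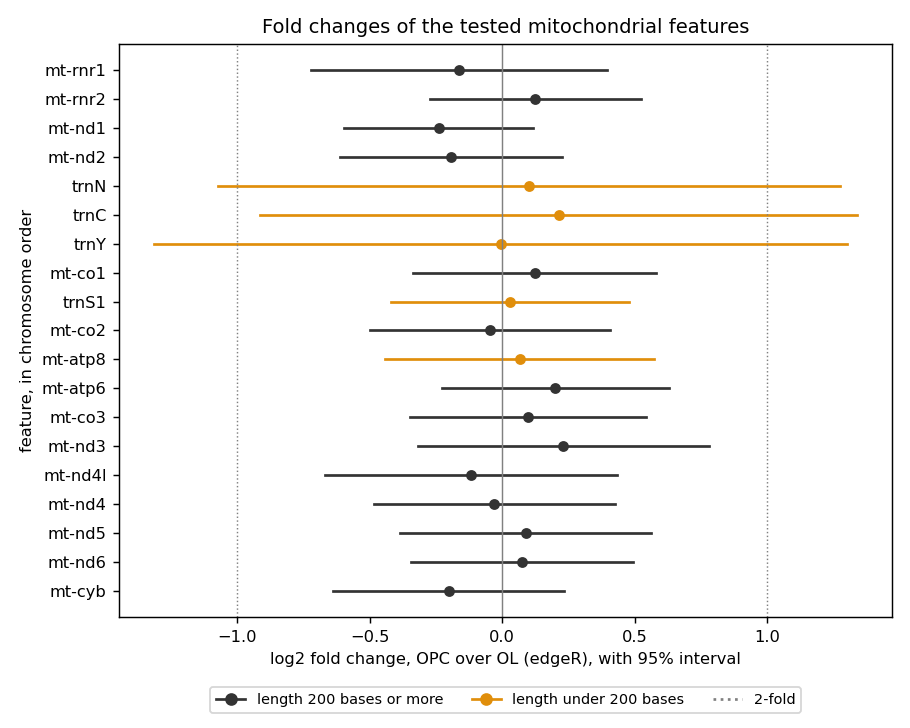
Log2 fold changes of OPCs over OLs (x axis, edgeR) for the 19 tested features of the mitochondrial chromosome, listed down the y axis in chromosome order. Points are estimates and lines are 95% intervals, black for features of 200 bases or more and orange for shorter ones; dotted lines mark a 2-fold difference, and each interval includes 0.

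Among the genes of complex I, the NADH dehydrogenase that starts the respiratory chain, mt-nd1 (3803 to 4777) came nearest to a difference. It had 1869, 2950.1, 2414, 1904 and 2052 normalized counts in the OPC libraries, against 2729, 2268, 2674, 3275 and 2262 in the OL libraries. OPC replicates 1, 4 and 5 lay below every OL library, and OPC replicates 2 and 3 lay among them. The means were 2238 ± 453 in OPCs and 2642 ± 416 in OLs, for a log2 fold change of -0.24 ± 0.16 (SE) with an edgeR adjusted p of 0.435.

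The largest positive estimate was that of mt-nd3 (10590 to 10940), another membrane subunit of complex I. It had 507, 971, 775, 529 and 414 normalized counts in OPCs, against 769, 484, 415, 590.0 and 464 in OLs. OPC replicates 2 and 3 stood above every OL library, OPC replicate 5 just below them, and the log2 fold change of 0.23 ± 0.25 (SE) had an edgeR adjusted p of 0.657. The remaining subunits of this complex were mt-nd2, mt-nd4l, mt-nd4, mt-nd5 and mt-nd6, the last being the only protein-coding gene on the minus strand (14714 to 15232). Their log2 fold changes lay between -0.19 for mt-nd2 (4894 ± 1358 normalized counts in OPCs and 5594 ± 1005 in OLs) and 0.09 for mt-nd5 (2679 ± 721 in OPCs and 2519 ± 627 in OLs). In between, mt-nd4 had 5821 ± 1571 in OPCs and 5938 ± 1413 in OLs, and mt-nd4l had 626 ± 215 in OPCs and 679.7 ± 185 in OLs. For mt-nd6 the value was 0.07 ± 0.19 (SE), with 1246 ± 335 normalized counts in OPCs and 1183 ± 166 in OLs. The genes mt-nd4l and mt-nd4 share 7 bases, and so do mt-atp8 and mt-atp6, so reads in those bases cannot be told apart between them.

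Complex III takes a single subunit from the mitochondrial chromosome, cytochrome b, encoded by mt-cyb (15308 to 16448). It had 11880.2, 23108, 15489, 11575 and 12386 normalized counts in OPCs, against 19659.5, 19451, 14441, 17974 and 14065 in OLs. OPC replicates 1, 4 and 5 lay below every OL library, OPC replicate 3 lay within the OL range and OPC replicate 2 above it. The log2 fold change of -0.20 ± 0.20 (SE) had an edgeR adjusted p of 0.618.

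Complex IV, cytochrome c oxidase, was represented by mt-co1 (6425 to 7975), mt-co2 (8130 to 8820) and mt-co3 (9735 to 10520). The catalytic subunit mt-co1 had 23854, 45771, 32755, 26469.9 and 26328 normalized counts in OPCs, against 26521, 38125, 22493, 33689 and 21649.7 in OLs. For mt-co2, which receives electrons from cytochrome c, the values were 18971, 40928, 26354, 21562 and 23164 in OPCs, against 31569, 31625, 21591, 28349.6 and 21998 in OLs. In both cases OPC replicate 2 was the highest of all 10 libraries, and OPC replicates 1 and 4 lay below every OL library for mt-co2 but not for mt-co1. The third subunit gene, mt-co3, had 23148 ± 6965 normalized counts in OPCs and 21632 ± 4251 in OLs. The log2 fold changes were 0.12 ± 0.21 for mt-co1, -0.05 ± 0.21 for mt-co2 and 0.10 ± 0.20 for mt-co3 (SE), with edgeR adjusted p of 0.800, 0.932 and 0.841.

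The ATP synthase genes mt-atp6 (9052 to 9735) and mt-atp8 (8894 to 9058) encode parts of its membrane sector. For mt-atp6 the libraries held 8885, 14741, 14631, 9326 and 8574 normalized counts in OPCs, against 10896, 10881, 7869, 11404 and 7825 in OLs. OPC replicates 2 and 3 stood above all OL libraries and the other OPC replicates lay inside the OL range. The log2 fold change was 0.20 ± 0.20 (SE) for mt-atp6 with an edgeR adjusted p of 0.613, and 0.07 ± 0.23 (SE) for mt-atp8 (643 ± 216 normalized counts in OPCs and 614 ± 129 in OLs) with an edgeR adjusted p of 0.911.

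The rRNAs of the small and large subunits of the mitochondrial ribosome are encoded by mt-rnr1 (1020 to 1971) and mt-rnr2 (2043 to 3725). The small-subunit rRNA had 452, 1006, 485, 539 and 801 normalized counts in OPCs, against 487, 617, 893, 939.9 and 738 in OLs. The large-subunit rRNA had 43209.5, 53554, 39628, 51371 and 46519 in OPCs, against 31386, 61156, 39271, 49132 and 33911 in OLs. The populations overlapped for both rRNAs, the OL libraries spreading more widely than the OPC libraries for mt-rnr2, and the log2 fold changes were -0.16 ± 0.26 for mt-rnr1 (edgeR adjusted p = 0.782) and 0.12 ± 0.18 for mt-rnr2 (edgeR adjusted p = 0.759).

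**Figure D2:**
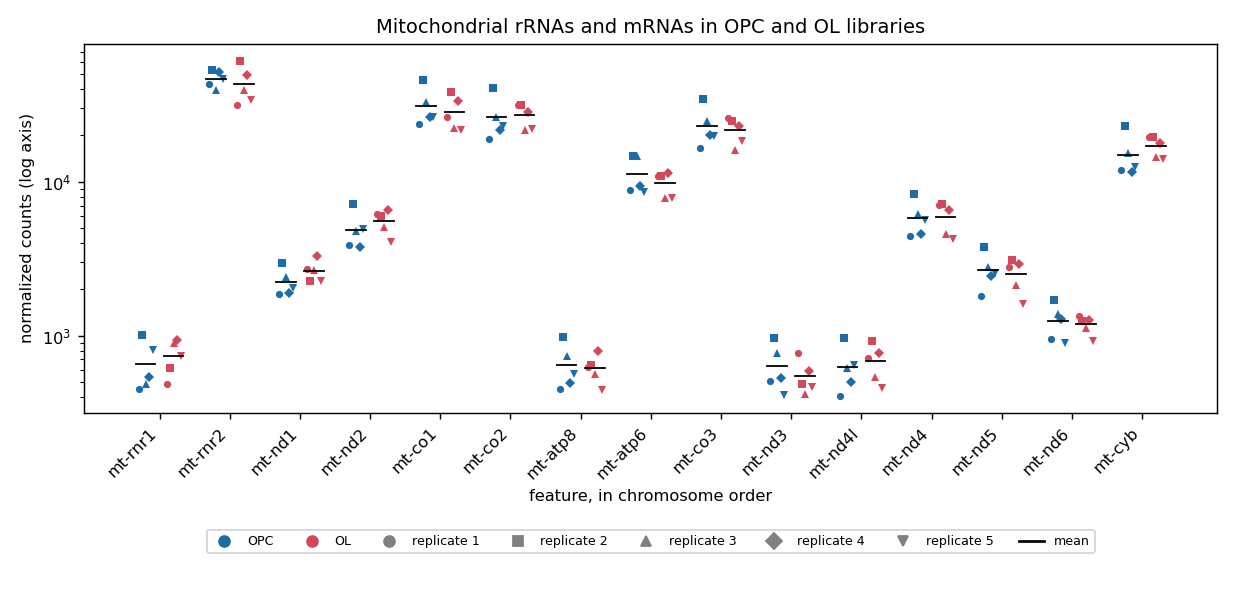
Normalized counts (y axis, log scale) of the 2 rRNAs and 13 mRNAs of the mitochondrial chromosome (x axis, in chromosome order). Each symbol is 1 library, blue for OPCs and red for OLs, with a shape for each replicate and a black line at the mean; OPC replicate 2 (square) is the highest OPC library for all 15 features.

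One library stood apart among the OPCs. OPC replicate 2 had the highest value of the 5 OPC libraries for all 15 mRNAs and rRNAs and the highest of all 10 libraries for 13 of them, the exceptions being mt-rnr2, highest in OL replicate 2, and mt-nd1, highest in OL replicate 4. OPC replicate 1 was the lowest OPC library for 9 of the 15, and OL replicate 5 the lowest OL library for 10.

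The composition of the mitochondrial RNA does not depend on how libraries are scaled. The populations overlapped in the share of every group of transcripts, least so for complex III (mt-cyb, given below). Complex IV transcripts held the largest share, 45.8% ± 3.18 of the mitochondrial counts in OPCs and 45.8% ± 2.47 in OLs. The rRNAs followed with 28.1% ± 4.94 in OPCs and 25.9% ± 4.22 in OLs, nearly all of it mt-rnr2. Complex I transcripts held 10.4% ± 0.61 in OPCs and 11.4% ± 1.07 in OLs, and complex V transcripts 6.83% ± 1.15 in OPCs, against 6.19% ± 0.49 in OLs (all as mean ± SD, n = 5).

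The share that came closest to separating the populations was that of mt-cyb. It took 8.56%, 9.56%, 8.87%, 7.38% and 7.94% of the mitochondrial counts in OPCs, against 11.6%, 9.30%, 10.3%, 9.55% and 10.5% in OLs. Only OPC replicate 2 reached into the OL range, above OL replicates 2 and 4 by little. The means were 8.46% ± 0.84 in OPCs and 10.2% ± 0.91 in OLs, and the share of mt-nd2 likewise averaged 2.81% ± 0.28 in OPCs and 3.34% ± 0.36 in OLs. The shares of 0 of the 15 mRNAs and rRNAs were without overlap, and the widest 95% Wilson interval of a share reached 0.251 percentage points to either side.

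**Figure D3:**
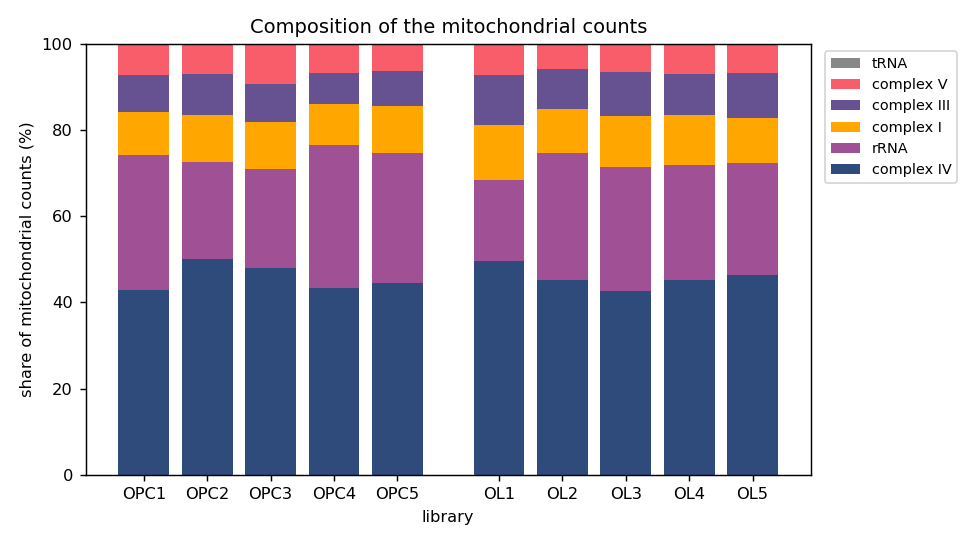
Share of the mitochondrial counts (y axis, %) taken by each group of transcripts in the 5 OPC and 5 OL libraries (x axis). Colours stand for complex IV, rRNA, complex I, complex III (mt-cyb) and complex V from bottom to top, with the tRNA layer, under 1%, too thin to see; complex IV holds 42.8% to 50.1% in OPCs and 42.8% to 49.6% in OLs.

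Per kilobase of annotated length, the transcripts of this chromosome differed from each other far more than the populations did. Averaged over the 10 libraries, mt-co2 was highest with 38511 normalized counts per kb, followed by mt-co3 with 28486, mt-rnr2 with 26687 and mt-co1 with 19191. Next came mt-atp6 with 15356 and mt-cyb with 14025, and then, at a marked distance, mt-nd2 with 5009 and mt-nd4 with 4257. The genes mt-atp8, mt-nd1, mt-nd6, mt-nd4l, mt-nd3 and mt-nd5 followed with 3808 down to 1427, and mt-rnr1 was lowest with 731, a 52.7-fold range.

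Of the 14 steps between neighbours in this order, 6 held in all 10 libraries, namely those below mt-co2, mt-rnr2, mt-cyb, mt-nd2, mt-atp8 and mt-nd5. The other steps held in 5 to 9 of the 10 libraries, and neighbours were not tested against each other. For example, mt-co3 was above mt-rnr2 in 5 of 10 libraries, mt-atp6 above mt-cyb in 6 and mt-co1 above mt-atp6 in 9. In 10 of the 15 features the rank was the same in OPCs and OLs. The rRNA genes, which in vertebrates lie side by side in one precursor, stood at the third and the last place of this order. Per kb, mt-rnr2 exceeded mt-rnr1 by 30.1-fold to 54.0-fold in OPCs and by 24.9-fold to 56.0-fold in OLs. In polyA-selected RNA such a ratio counts only the transcripts that entered the library.

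The 22 tRNA features, of 68 to 77 bases, were almost empty except for a small set. In every library 13 of them held at most 3 counts, and a further 5 reached a highest raw count between 4 and 16, namely trnF, trnI, trnA, trnD and trnE, which fell outside the rule for named genes and were named after their values were seen. The remaining 4, trnN, trnC, trnY and trnS1, held 7788 of the 8054 tRNA counts (96.7%). They carry asparagine, cysteine, tyrosine and serine, and all 4 lie on the minus strand, as do 8 of the 22 tRNA genes.

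Their positions have in common that they flank mt-co1. The genes trnN (6178 to 6250), trnC (6283 to 6354) and trnY (6353 to 6423) follow each other directly before it, with a gap of 32 bases between trnN and trnC, where vertebrate mitochondrial chromosomes usually carry an origin of replication. The gene trnS1 (7976 to 8046) begins at the base after the end of mt-co1, on the opposite strand. The paper describes shearing of amplified cDNA before library preparation and names no step that keeps the strand. Whether counting used the strand is not given in the sources used here either. Reads of a tRNA gene therefore cannot be told apart from reads of transcripts that cross it on the other strand. The same limit holds for mt-nd6, also on the minus strand. By the paper's read length, a read was about as long as a whole tRNA feature, so it can reach into a neighbouring gene. With polyA RNA as the molecule, counts on these features cannot be read as levels of mature tRNAs.

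The tRNA features did not pass the test either. For trnS1 the libraries held 358, 649, 674, 478 and 381 normalized counts in OPCs, against 509.9, 522, 400.0, 557 and 497 in OLs, with a log2 fold change of 0.03 ± 0.21 (SE) and an edgeR adjusted p of 0.953. For trnN they held 68.1, 233, 23.6, 48.2 and 163 in OPCs, against 108, 102, 126, 121 and 42.3 in OLs. The OPC libraries spread much more widely than the OL libraries, with replicates 2 and 5 above all OLs, replicates 1 and 4 between OL replicate 5 and the other OLs, and replicate 3 below all OLs. For trnC they held 92.6, 265, 30.4, 44.9 and 159 in OPCs, against 124, 112, 121, 106 and 47.9 in OLs.

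The order of the OPC libraries was nearly the same for trnN, trnC and trnY, with replicates 2 and 5 highest and replicate 3 lowest for each. Replicates 2 and 5 were also the 2 highest OPC libraries for mt-rnr1, mt-nd2, mt-nd4l, trnF and trnE. For most mRNAs the 2 highest were instead replicates 2 and 3, namely for mt-nd1, mt-nd3, mt-nd4, mt-nd5, mt-nd6, mt-co1, mt-co2, mt-co3, mt-atp6, mt-atp8 and mt-cyb. For mt-rnr2 they were replicates 2 and 4, and for trnS1 replicate 3 was highest. Log2 fold changes were 0.10 ± 0.54 for trnN, 0.21 ± 0.52 for trnC and -0.01 ± 0.60 for trnY (SE), with edgeR adjusted p of 0.940, 0.863 and 0.998. As a whole, tRNA features took 0.446% ± 0.0617 of the mitochondrial counts in OPCs and 0.461% ± 0.0509 in OLs.

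**Figure D4:**
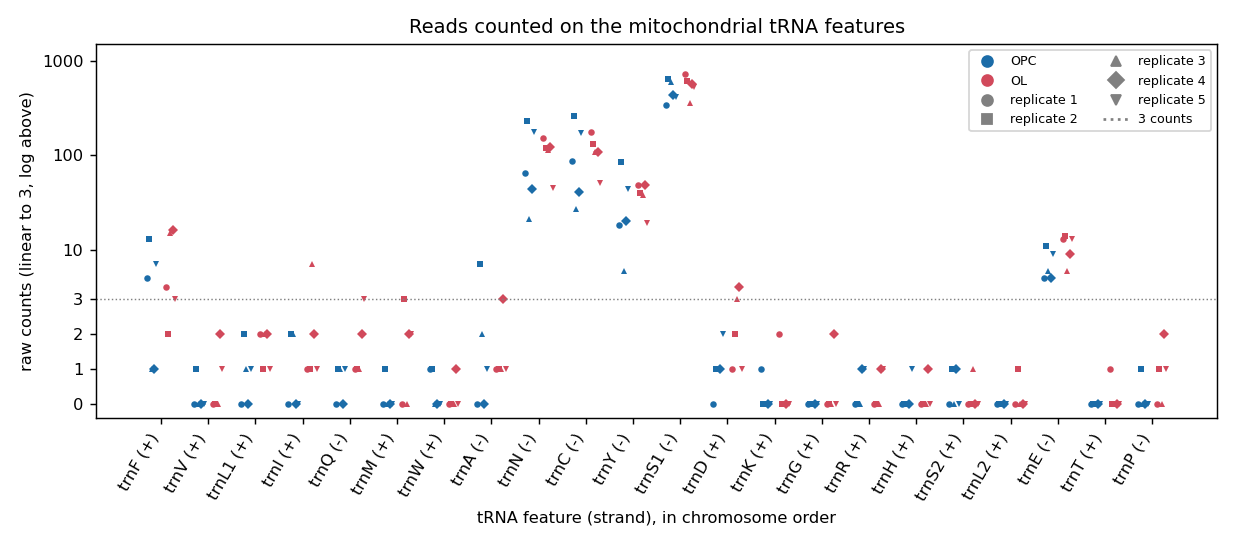
Raw counts (y axis, linear up to 3 and logarithmic above) on the 22 tRNA features of the mitochondrial chromosome (x axis, in chromosome order, with the strand in parentheses). Each symbol is 1 library, blue for OPCs and red for OLs, with a shape for each replicate, and the dotted line marks 3 counts; trnN, trnC, trnY and trnS1 stand above the other 18.

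The nuclear genes that work with this chromosome were examined in the same fit through lists of respiratory subunits, mitochondrial ribosomal proteins and factors of mitochondrial DNA and RNA metabolism. The table held 207 such genes, of which 201 were tested, and 9 of them (4.48%) passed, beside 11.8% of all tested features. They split into 3 that were higher in OPCs (9.01% of all tested features were) and 6 that were lower in OPCs (2.82% of all were), and the median log2 fold change over the 201 was -0.10. Of the 3 higher ones, 2 (cox7a1 and cox8b of complex IV) passed the expression filter through the OPC libraries alone. Their calls follow in part from the filter, so the 3 are not a plain count beside the share of all features. The split into higher and lower changed with the scaling: by library size alone, 12 were higher and 1 was lower. Without OPC replicate 5 there were 7 higher and 7 lower, and without OPC replicate 1 there were 5 higher and 3 lower.

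In complex I, listed by gene symbol with ndufa4 included, 3 of 39 tested nuclear genes changed. Accessory subunit ndufb7 was lower in OPCs, with 1192, 645, 721, 825 and 465 normalized counts in OPCs, against 1919, 1835, 2147, 1826 and 1396 in OLs. Every OPC library lay below every OL library, with a log2 fold change of -1.25 ± 0.23 (SE, edgeR adjusted p = 0.00227). Another accessory subunit, ndufb11, was also lower at 816 ± 217 in OPCs and 1423 ± 129 in OLs (log2 fold change -0.80, edgeR adjusted p = 0.0144). In the opposite direction went ndufs8, an iron-sulfur subunit, with 243, 348, 311, 453 and 248 normalized counts in OPCs, against 150.0, 96.5, 27.9, 124 and 111 in OLs. Its log2 fold change was 1.65 ± 0.37 (SE, edgeR adjusted p = 0.00935), so the nuclear genes of this complex that changed did not move as 1 group, and the median of the 39 was -0.13.

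The other complexes had few or no such genes. In complex II, sdhc, a membrane anchor of succinate dehydrogenase, fell to 599 ± 145 normalized counts in OPCs, against 1041 ± 105 in OLs (log2 fold change -0.80, edgeR adjusted p = 0.0140), as 1 of 5 tested genes. By library size alone, ndufb11 (adjusted p = 0.0638) and sdhc (adjusted p = 0.0624) no longer passed in edgeR. In complex III 0 of 9 nuclear genes passed in edgeR, with 0 at an unadjusted p under 0.05 and 0 in DESeq2 and limma. In complex V 0 of 18 passed in edgeR, with 2 at an unadjusted p under 0.05, 0 in DESeq2 and 1 in limma.

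In complex IV 2 of 16 passed in edgeR, both higher in OPCs, with 4 at an unadjusted p under 0.05. DESeq2 called 2 higher and 1 lower in OPCs, and limma 2 higher and 0 lower. Lower at an unadjusted p were cox6b1 (log2 fold change -2.21, edgeR adjusted p = 0.0745) and cox8a (-0.32, edgeR adjusted p = 0.195), named after their values were seen. The 2 that passed were cox7a1 and cox8b, which fell outside the rule for named genes by their low level and were named after their values were seen. They passed the expression filter through the OPC libraries alone, so their calls follow in part from the filter, and with a minimum of 10 counts per library both were left out. In mammals these encode isoforms typical of muscle. Cox7a1 had 116, 10.3, 134, 25.2 and 74.8 normalized counts in OPCs, against at most 2 raw counts in any OL library. Against a floor of 3 counts per library its mean was at least 26.0-fold higher in OPCs (edgeR adjusted p = 0.000640), or at least 20.4-fold higher without OPC replicate 3. Cox8b had 21.3, 34.9, 18.0, 89.9 and 10.3 in OPCs, against 0 in the OL libraries. By the same floor it was at least 12.6-fold higher (edgeR adjusted p = 0.00185), or at least 7.63-fold higher without OPC replicate 4. Of 15 skeletal muscle marker features, a list added after these values were seen, 12 held at most 3 counts in every library. The list summed to 16.9 to 98.5 normalized counts in OPCs and 8.45 to 46.1 in OLs, most of it in 1 copy of acta1 and in actc1b.

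Among 73 mitochondrial ribosomal protein genes, mrpl24 (244 ± 60.3 in OPCs and 437 ± 108 in OLs), mrps5 (93.2 ± 31.9 in OPCs and 199 ± 42.9 in OLs) and mrps16 (108 ± 29.7 in OPCs and 199 ± 31.7 in OLs) were lower in OPCs. These encode proteins of the large (mrpl24) and small (mrps5 and mrps16) subunit. They were 4.11% of the 73, beside 2.82% of all tested features that were lower in OPCs. Their log2 fold changes were -0.84, -1.09 and -0.88, with edgeR adjusted p of 0.0295, 0.0274 and 0.0434, and the median of the 73 was -0.13. These calls were lost or gained with single libraries, with 0 of 73 called without OL replicate 1, 1 without OPC replicate 1, 2 or 3 or without OL replicate 3 or 4, and 5 without OPC replicate 5.

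Among 20 genes listed under transcription and replication of mitochondrial DNA, 0 passed in edgeR, with 1 at an unadjusted p under 0.05 and 0 in DESeq2 and limma. That list also held the transcription regulators nrf1, gabpa, esrra, ppargc1a and ppargc1b. The 1 gene was gabpa, named after its value was seen. Among 21 genes for processing and stability of its RNA, 0 passed in edgeR, with 3 at an unadjusted p under 0.05 and 1 each in DESeq2 and limma. The packaging and transcription factor tfam had 553 ± 78.0 normalized counts in OPCs and 512 ± 43.7 in OLs (log2 fold change 0.11, edgeR adjusted p = 0.744). The mitochondrial RNA polymerase gene polrmt had a log2 fold change of 0.39 ± 0.46 (SE, edgeR adjusted p = 0.685). For lrpprc, whose product stabilizes mitochondrial mRNAs in mammals, it was 0.55 ± 0.30 (SE, edgeR adjusted p = 0.309), and for the DNA polymerase gene polg -0.13 ± 0.42 (SE, edgeR adjusted p = 0.900). The coactivator gene ppargc1a was not tested, with counts in a single OPC library (6.57 normalized counts in replicate 4) and 0 in every other library.

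**Figure D5:**
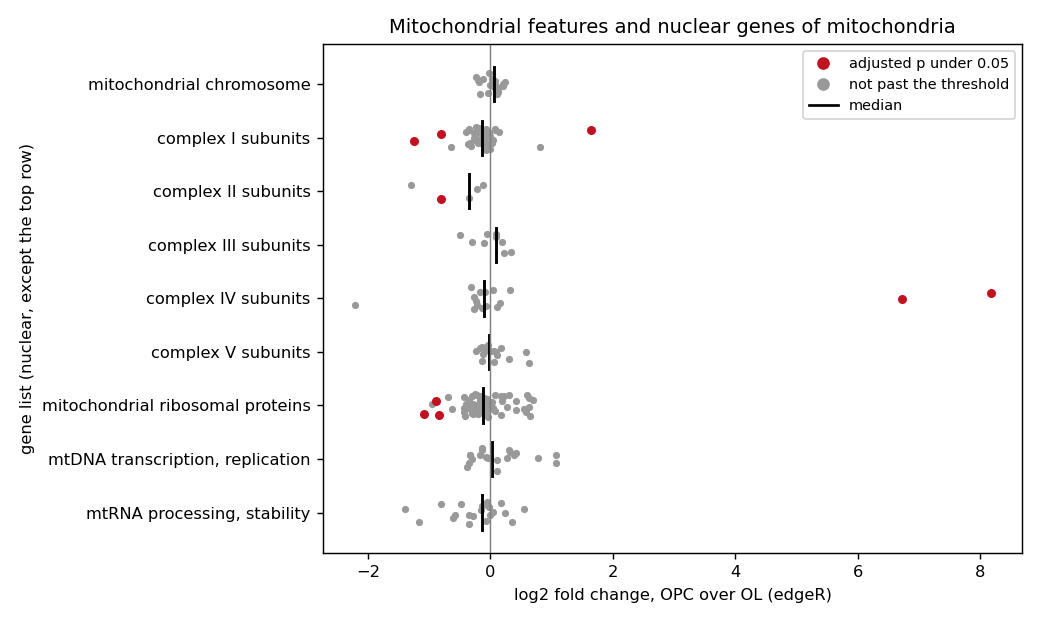
Log2 fold changes of OPCs over OLs (x axis, edgeR) for the tested features of the mitochondrial chromosome (top) and for the nuclear gene lists (y axis). Each point is 1 feature, red with an adjusted p under 0.05 and gray otherwise, and black bars are medians. Of the 19 mitochondrial features 0 are red, against 9 of the 201 nuclear genes. Among the red points, cox7a1 and cox8b passed the expression filter through the OPC libraries alone.

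Summed over all 92 nuclear genes of complexes I to V, the libraries held 94568, 99096, 103611, 120811 and 65727 normalized counts in OPCs, against 109549, 99359, 106013, 110106 and 96823 in OLs. Here OPC replicate 5 stood lowest and OPC replicate 4 highest, whereas the mitochondrial sum was highest in OPC replicate 2. The ratio of mitochondrial to nuclear respiratory normalized counts was 1.47, 2.44, 1.68, 1.30 and 2.37 in OPCs, against 1.55, 2.11, 1.32, 1.71 and 1.38 in OLs. It averaged 1.85 ± 0.524 in OPCs and 1.61 ± 0.314 in OLs, and the populations overlapped.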

How the data were processed

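The authors FACsorted the cells, amplified full-length cDNA from polyA RNA and sequenced 5 OPC and 5 OL libraries. Per the submitters' processing notes, reads were handled with bcl2fastq 2.17.1.14, GSNAP and featureCounts 1.5.2 on GRCz10, with gene models of Ensembl release 81. The deposited values are raw counts per gene, and the treatment of strand and of reads with several matches is not given in the sources used here. Reads come from amplified cDNA and carry no stated molecular identifiers. The Wilson intervals and the floor of 3 counts therefore cover the counting of reads only, not of molecules, whereas the intervals of fold changes rest on the spread between replicates. Nuclear copies of mitochondrial sequence could share reads with these features.

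Features were kept with edgeR's filterByExpr (12292 of 31388), scaled with the size factors of DESeq2 (median of ratios) and compared with edgeR's quasi-likelihood test and Benjamini-Hochberg adjustment over all tested features, at a threshold of 0.05 (edgeR 4.0.16, DESeq2 1.42.0, limma 3.58.1, R 4.3.3, Python 3.11.15). On simulated data for this comparison with 200 features changed 4-fold, 11974 features passed the filter and edgeR called 136, of which 130 were changed features. DESeq2 called 194, of which 156 were changed features, and limma called 117, of which 114 were. Changes smaller than 4-fold were not simulated. P-values set the difference between the populations against the spread between the replicates, which edgeR moderates over all features. Shares and ratios over several features were given no test. The 13 protein-coding genes were named by identifier and the 24 rRNA and tRNA genes by identical start and end in RefSeq's table (assembly GRCz12tu), in which all 37 positions matched.

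Named were all long features, the 5 most abundant short ones, up to 3 nuclear genes per list and direction with an adjusted p under 0.05 and, in the population with the higher level, a mean normalized count of 100 or more, and tfam, polrmt, ppargc1a, lrpprc and polg. The members and lists were chosen with earlier results of these data known. Alternatives were TMM, library size alone, size factors without mitochondrial features, no filter, at least 10 counts in every library, DESeq2, limma voom with quality weights, the replicate number as a block, a threshold of 0.01 and leaving out each library.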

Additional observations from a re-analysis of the deposited data

Results flagged for a closer look

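In OL replicate 5, trnN had 42.3 normalized counts, while the other 4 OL libraries had 102 to 126. The same library had 47.9 normalized counts for trnC, while the other 4 had 106 to 124. The gap to the nearest OL library was 0.717 of the OL range for trnN and 0.757 for trnC, above Dixon's 95% critical value for 5 samples. The genes are neighbours on the minus strand. In all, 66 groups of 5 libraries were examined, in which chance gives about 3.3 such gaps, and 2 were found. OL replicate 5 was also the lowest OL library for 10 of the 15 mRNAs and rRNAs.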

How the results depend on the processing

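The absence of a call held for the mitochondrial features under every alternative that was run: of 341 values for the 19 tested features, 0 passed the threshold, with adjusted p from 0.111 to 1.00. With no filter all 37 features were tested and 0 passed in edgeR, the single tool run without a filter. The sign was less stable, and 46 of the 341 were opposite. By library size alone the log2 fold change was 0.17 for mt-rnr1, 0.073 for mt-nd1, 0.12 for mt-nd2, 0.34 for trnY, 0.26 for mt-co2, 0.20 for mt-nd4l, 0.28 for mt-nd4, 0.11 for mt-cyb and 0.17 for polg. With limma it was -0.92 for trnN and -0.75 for trnC, and under a minimum of 10 counts per library 0.0011 for mt-nd4. Leaving out 1 library at a time gave -0.13 to 0.17 for mt-atp8, -0.058 to 0.24 for mt-co1, -0.26 to 0.050 for mt-co2, -0.090 to 0.20 for mt-co3, -0.19 to 0.053 for mt-nd4, -0.33 to 0.0061 for mt-nd4l, -0.070 to 0.20 for mt-nd5, -0.067 to 0.18 for mt-nd6, -0.40 to 0.36 for trnN, -0.32 to 0.46 for trnC, -0.66 to 0.26 for trnY, -0.091 to 0.13 for trnS1 and -0.31 to 0.074 for polg. The differences between OPCs and OLs in the share of the chromosome and of each complex moved by less than 1 SD throughout, although the share itself depended on the denominator, at 2.10% in OPCs and 1.85% in OLs without the 5 most abundant features in it.

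Nuclear genes higher in OPCs numbered 12 by library size alone, 1 under the minimum of 10 counts per library, 7 with limma and 3 to 7 without 1 library. Those lower in OPCs numbered 1 by library size alone, 3 under that minimum, 1 at a threshold of 0.01 and 3 to 7 without 1 library. Over all features, calls in either direction numbered 1929 of 12292 by library size alone and 449 of 9204 under that minimum. They numbered 2017 of 12292 with limma and 1282 to 1796 without 1 library. The causes were not tested.

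With the replicate block, 0 mitochondrial features and 0 of the 73 ribosomal protein genes were called, and the log2 fold change was -0.24 for trnN, -0.12 for trnC and -0.011 for trnS1. Over all features the block gave 1407 calls, against 1455 without it. Same-numbered libraries come from different lines and their deviations correlated by 0.0240 to 0.105, with 4 of 5 OPC libraries correlating best with their own number, a hint from the data and not the design. With 5 libraries a population, differences inside the reported intervals could not be resolved. The 18 tRNA features left out by the filter were limited by their low counts, which are not levels of mature tRNAs.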
